A study of Mus musculus with 10 samples.

Results

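Glutamate receptors and their auxiliary subunits were examined in RNA of the motor cortex from C57BL/6 mice at postnatal day 22. The 37 genes were chosen by name among the protein-coding rows of the deposited table, which lists 35275 genes. They are 18 ionotropic subunits (4 AMPA, 7 NMDA, 5 kainate and 2 delta), 8 metabotropic receptors and 11 auxiliary subunits. One group was 5 wild-type mice (WT), and the other was 5 mice with a conditional knockout of membralin in astrocytes (KO). Tmem259 encodes membralin, which sits in the membrane of the endoplasmic reticulum. The sources used here do not give the allele, the driver of the deletion or the sex of the mice. The labels call the samples biological repeats but name no litter or batch, so p-values measure the spread between these samples. The comparison asks how transcripts of the glutamate system differ when astrocytes lack membralin.

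Glutamate is the main excitatory transmitter of the cortex. AMPA receptors carry the fast synaptic current, NMDA receptors admit calcium once the membrane is depolarized, and kainate and delta subunits tune or organize synapses. Metabotropic receptors act through G proteins: group I excites through phospholipase C, whereas groups II and III lower cyclic AMP and often sit on presynaptic terminals. TARPs (the Cacng genes), cornichons (Cnih2 and Cnih3), Shisa9 and the Neto proteins bind ionotropic receptors and set their trafficking and kinetics. Most of these genes are expressed by neurons, but cortical astrocytes also express Grm3, Grm5 and, in mice, Grin2c. In whole tissue, fewer cells of a type and less RNA per cell cannot be told apart.

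Values are FPKM, fragments per length of gene and per library size, so levels can be compared between genes. Each WT library held 22793058 to 28827871 fragments and each KO library 22968013 to 27567361. Tmem259, on chromosome 10 from 79974948 to 79984330 (mm10), had levels of 25.5, 23.8, 25.0, 32.4 and 30.4 FPKM in WT1 to WT5 and 20.1, 18.5, 34.4, 16.9 and 26.2 FPKM in KO1 to KO5. The library labelled KO3 had the highest of the 10 values, and KO5 also lay inside the WT range. The log2 fold change of Tmem259 was -0.27 (SE 0.16, limma adjusted p = 0.275). The label of KO3 may not give its genotype, which these values cannot settle, and every KO mean and test with n = 5 takes the label as given. For 26 of the 35 receptor and auxiliary genes tested, that library lay inside the WT range, against 14 to 16 for each other KO library. The same count over all genes is not given here, so it cannot be read as a trait of these genes. The receptor results below are given with and without the library labelled KO3. Since that library was set apart with these values known, leaving it out favours calls in genes where it lies nearer to WT. The calls without it describe the other 9 libraries and are no independent test. Omp, a marker of the olfactory bulb, was at least 1 FPKM in 2 of 5 WT and 4 of 5 KO libraries, including the library labelled KO3. Cortical markers were present in every library, with Slc17a7 at 724 to 817 FPKM in WT and 735 to 960 FPKM in KO. Each group had 2 libraries with Y-linked transcripts.

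Levels in the cortex spanned a wide range. Cnih2, a cornichon that promotes the export of AMPA receptors, was the most abundant of the 37 genes at 209 FPKM over the 10 libraries. It was followed by the kainate subunit Grik5 at 119 FPKM, the obligatory NMDA subunit Grin1 at 98.6 FPKM and the AMPA subunit Gria1 at 96.8 FPKM. Among metabotropic receptors Grm5 (35 FPKM) and Grm3 (27.5 FPKM) were highest and Grm8 (3.80 FPKM) was the lowest that was tested. The delta subunit Grid1 averaged 13.5 FPKM. Grin3b and Grm6 were below the filter of a mean of 0.5 FPKM. Grm6, the receptor of retinal ON bipolar cells, had 1 fragment in each of 3 WT libraries and 0 in all KO libraries, so that its level there was under 0.00556 FPKM, the value of 3 fragments in the whole group.

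Between KO and WT, 6 of the 35 tested genes passed. In KO 3 rose, among them Cacng5 and Grm4, and 3 fell, Grin2a, Cacng2 and Grm3. The test was limma on log2(FPKM + 1) over 14497 genes, and a gene passed when its p, adjusted by Benjamini-Hochberg over all of these, was under 0.05. The 3 genes that rose are 8.57% of those tested, where 9.77% of all genes were called higher, and the 3 that fell are likewise 8.57%, where 3.51% of all genes were called lower. With median-of-ratios scaling, which moved the median log2 fold change of all genes from 0.0779 to -0.0023, 1 receptor gene passed higher, where 4.19% of all genes did, and 3 passed lower, where 6.52% did. All genes then split into 608 higher and 945 lower in place of 1417 and 509. With voom on fragments recovered from the FPKM, 4 passed higher, where 10.7% of all genes did, and 4 lower, where 3.98% did. The median log2 fold change was 0.042 over the 35 genes and 0.0779 over all genes tested. In no receptor gene did the groups lie wholly apart, where 5.7% of all genes had every KO library above every WT library and 1.85% had every one below.

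More receptor genes passed without the library labelled KO3. Then 6 were higher (among them Gria1, Grin3a, Grm8, Cacng5 and Cacng8) and 6 were lower (Grin2a, Grin2b, Grm2, Grm3, Cacng2 and Cacng3). Each set is 17.1% of the 35, where 19.6% of all genes were called higher and 6.36% lower in that fit. Of the 6 genes called with all libraries, 5 passed in the same direction here, and Grm4 did not (limma adjusted p = 0.0518). The 4 other KO libraries lay above every WT library for 2 genes, among them Gria1, 5.71% of the genes where all genes gave 17.8%. They lay below every WT library for Grin1, Grm2, Grm3, Cacng2 and Cacng3, 14.3% where all genes gave 5.8%.

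The 6 calls with all libraries depended on which mice entered. None passed without WT1 (adjusted p from 0.0632 to 0.111), without KO2 (0.0607 to 0.107) or without KO4 (0.0616 to 0.0896), when 2 of all genes passed in limma although 3934, 4114 and 3742 had an unadjusted p under 0.05. Without WT2, Grin2a (adjusted p = 0.0524) and Grm3 (0.0685) no longer passed. Without WT3 this held for Grin2a (0.0534), Cacng2 (0.0548) and Grm3 (0.0561), and without WT4 for 2 genes, among them Grm4 (0.0717). Without WT5 4 genes were lost, among them Cacng2 (0.0605), Grm3 (0.0627) and Grm4 (0.0991). Only Grin2a passed without KO1 (0.0464, the other 5 from 0.0547 to 0.0994), and without KO5 only Cacng5 (0.036) and Grm3 (0.0491) did (the other 4 from 0.0581 to 0.0768). Calls over all genes also dropped, from 1926 with all libraries to 1186, 1229, 1263 and 847 without WT2 to WT5. They were 576 without KO1 and 987 without KO5, so the losses are not particular to the receptor genes. With the library labelled KO3 also left out, Gria1, Grin2a, Grm3, Cacng2, Cacng3 and Cacng5 passed in all 9 fits that left out a further library. Of the other genes called without that library, Grm2 passed in 6 of these fits, Grin3a in 5, and Grin2b, Grm8 and Cacng8 in 2 each. Shares over all genes are not given for these 9 fits. With median-of-ratios scaling in place of a further library left out, the log2 fold change of Grin3a (limma adjusted p = 0.111), the log2 fold change of Grm8 (0.175) and the log2 fold change of Cacng8 (0.202) did not pass.

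**Figure D1:**
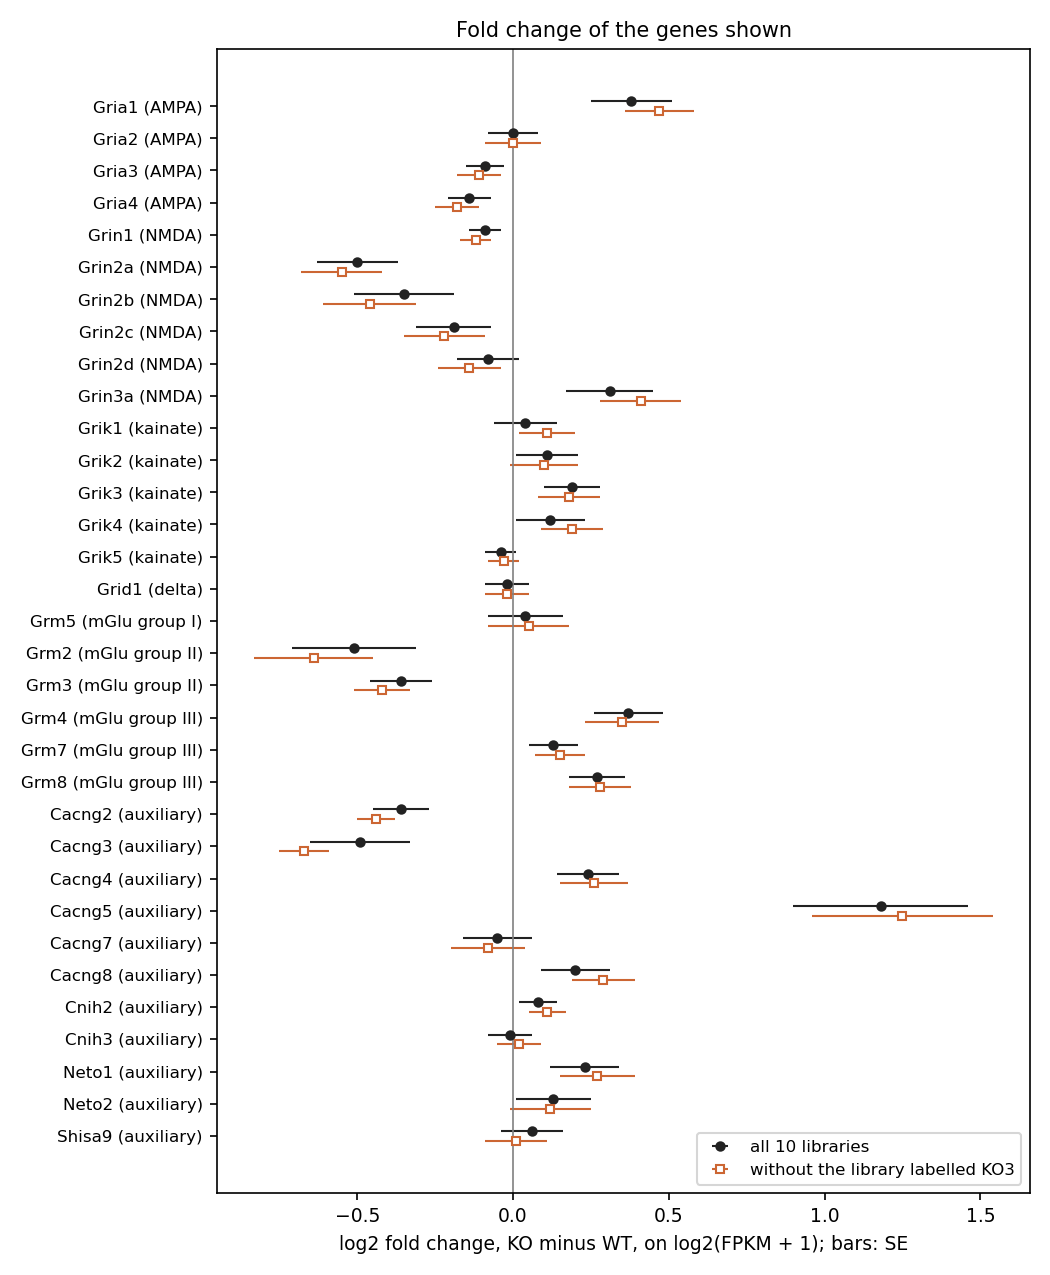
Log2 fold change of tested genes between KO and WT on the log2(FPKM + 1) scale, with its SE, from all 10 libraries (filled circles) and without the library labelled KO3 (open squares). Cacng5 at 1.18 stands farthest from 0, and Grm2, Grin2a and Cacng3 are the lowest at -0.51, -0.50 and -0.49.

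No AMPA subunit passed with all libraries, and Gria1 was higher without the library labelled KO3. Gria1 encodes GluA1, a subunit that is added to synapses during potentiation. It measured 90.0, 84.4, 95.6, 88.9 and 61.3 FPKM in WT1 to WT5, and 123, 115, 84.3, 120 and 106 FPKM in KO1 to KO5. The 4 KO libraries other than the library labelled KO3 exceeded every WT library, and that library lay among the WT values. The log2 fold change was 0.38 (SE 0.13, limma adjusted p = 0.0625), and 0.47 (SE 0.11, adjusted p = 0.0107) without the library labelled KO3. Gria2, whose edited subunit keeps calcium out of the channel, had a WT mean of 62.1 ± 6.90 FPKM and a KO mean of 61.8 ± 3.92 FPKM (SD, n = 5 each), with a log2 fold change whose SE was 0.08. Gria3 and Gria4 had log2 fold changes of -0.09 and -0.14 and did not pass.

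The balance of AMPA subunits can be read as a ratio within each library. Gria1 stood at 1.5, 1.30, 1.40, 1.35 and 1.20 times Gria2 in WT1 to WT5. It stood at 1.93, 1.87, 1.36, 1.82 and 1.91 times Gria2 in KO1 to KO5. The 4 ratios outside the library labelled KO3 were thus all above the WT range, and that library fell inside it. Gria1 made up 40.8 ± 2.40% of the summed AMPA subunit FPKM in WT and 48.4 ± 4.15% in KO (SD, n = 5 each), and Gria2 30.3 ± 0.947% and 27.4 ± 1.63%. These shares were not tested, since the genes were chosen with earlier results known.

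Among NMDA subunits, Grin2a was the one called in all 10 libraries. It encodes GluN2A, which replaces part of GluN2B in cortical synapses after birth and shortens the current. Grin2a (chromosome 16, 9577710 to 9994921, minus strand) measured 27.1, 22.2, 22.4, 19.5 and 18 FPKM in WT1 to WT5. In KO1 to KO5 it was 19.0, 13.5, 17.5, 14.1 and 12.1 FPKM. The groups overlapped only in that KO1 lay above WT5. Grin2a fell by 0.50 (log2; SE 0.13; limma, adjusted p = 0.0295), and by 0.55 without the library labelled KO3 (adjusted p = 0.0108).

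Grin2b, the GluN2B subunit that dominates early in life, did not pass with all libraries. Its values were 44.1, 49.7, 60.7, 45.1 and 37.1 FPKM in WT1 to WT5, and 44.5, 32.9, 49.7, 32.9 and 26.8 FPKM in KO1 to KO5. KO1 and the library labelled KO3 lay inside the WT range. The log2 fold change was -0.35 (SE 0.16, limma adjusted p = 0.153), and -0.46 (SE 0.15, adjusted p = 0.0402) without the library labelled KO3. The Grin2b to Grin2a ratio was 2.19 ± 0.394 in WT and 2.43 ± 0.240 in KO (SD, n = 5 each), with all but the ratio of 2.84 in the library labelled KO3 inside the WT range of 1.63 to 2.71.

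The other NMDA subunits showed smaller or opposite differences. Grin1, which every NMDA receptor needs, measured 95.7, 102, 107, 103 and 101 FPKM in WT1 to WT5 and 94.5, 95.2, 104, 94.0 and 90.7 FPKM in KO1 to KO5. Its log2 fold change of -0.09 did not pass (limma adjusted p = 0.257). Grin3a, a subunit that lowers calcium entry and is abundant in young neurons, was 9.69, 10.3, 9.74, 8.66 and 6.44 FPKM in WT1 to WT5 and 11.7, 10.2, 8.52, 11.8 and 14.9 FPKM in KO1 to KO5. Its log2 fold change was 0.31 (SE 0.14, adjusted p = 0.136), and 0.41 (adjusted p = 0.0362) without the library labelled KO3. Grin2c and Grin2d, with log2 fold changes of -0.19 and -0.08, did not pass. Summed over the 7 genes, NMDA subunits reached 192 to 225 FPKM in WT, 171 to 192 FPKM in the 4 other KO libraries and 207 FPKM in the library labelled KO3.

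Grin3b shares sequence with the targeted gene. It lies on the opposite strand of chromosome 10, from 79970715 to 79977190, and its exons share 1059 bases with exons of Tmem259 in GENCODE M21, 981 of them in the coding part of Grin3b. Of the shared bases, 0 lie in the coding part of Tmem259 and 73 in its untranslated parts. Its count was 20, 21, 15, 18 and 5 fragments in WT1 to WT5 and 27, 20, 14, 25 and 36 fragments in KO1 to KO5. These are levels of 0.182 ± 0.0676 and 0.300 ± 0.112 FPKM (SD, n = 5 each). The difference did not pass when low genes were included (limma adjusted p = 0.233, with a two-sided exact permutation p of 0.0794, where the smallest possible is 0.00794). No source states that the kit keeps strand, so fragments of Grin3b and Tmem259 cannot be told apart in the shared bases. By FPKM, Grin3b in the 4 other KO libraries lay above every WT library, where 17.8% of all genes tested did so. By fragments it did not, since KO2 held 20 and WT2 21. Tmem259 was below every WT library in 3 of these 4 KO libraries.

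No kainate subunit passed in either fit, nor did Grid1. Grik5, the GluK5 subunit that raises the affinity for glutamate, was 125, 114, 118, 118 and 126 FPKM in WT1 to WT5 and 115, 115, 114, 117 and 124 FPKM in KO1 to KO5. It made up 78.4 ± 2.42% of the summed kainate subunit FPKM in WT and 76.0 ± 1.64% in KO (SD, n = 5 each). Grik3 had the highest log2 fold change of the kainate genes, 0.19 (SE 0.09, limma adjusted p = 0.159), and Grik1, Grik2 and Grik4 lay between 0.04 and 0.12. Grid1, which binds cerebellins across the synapse, was 14.1, 15.1, 13.7, 13.4 and 11.7 FPKM in WT1 to WT5 and 14.4, 13.4, 13.5, 12.6 and 13.0 FPKM in KO1 to KO5.

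Grm5, the main group I receptor of cortex, measured 35, 41.0, 38.4, 35.6 and 23.6 FPKM in WT1 to WT5 and 37.8, 33.8, 34.2, 35.3 and 35 FPKM in KO1 to KO5 (log2 fold change 0.04, SE 0.12). All KO values of Grm5 lay inside the WT range, and it did not pass.

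In group II, Grm3 fell, and Grm2 did not pass with all libraries. Grm3 (chromosome 5, 9485236 to 9725352, minus strand), which neurons and astrocytes express, measured 35.3, 32.3, 29.7, 27.6 and 30.1 FPKM in WT1 to WT5. In KO1 to KO5 it was 23.1, 23.6, 28.6, 18.8 and 26.2 FPKM, all but the library labelled KO3 below every WT value. Grm3 fell by 0.36 (log2; SE 0.10; limma, adjusted p = 0.0368), and by 0.42 without that library (adjusted p = 0.00734). Grm2, a presynaptic autoreceptor, was 15.7, 13.6, 18.7, 18.4 and 15.6 FPKM in WT1 to WT5 and 12.3, 12, 16.6, 12.3 and 5.61 FPKM in KO1 to KO5. Its log2 fold change of -0.51 did not pass (SE 0.20, adjusted p = 0.107), and that of -0.64 without the library labelled KO3 did (adjusted p = 0.0287). Summed, group II reached 45.8 to 51.0 FPKM in WT, 31.1 to 35.6 FPKM in the 4 other KO libraries and 45.2 FPKM in the library labelled KO3. Among 10 general astrocyte markers, 2 rose, Gfap and Aqp4, none fell and none was at 0 in any library. Their median log2 fold change was 0.03, and their sum was 1090 to 1240 FPKM in WT and 1170 to 1750 FPKM in KO. Gfap held much of the higher sum, at 79.4 to 114 FPKM in WT and 106 to 673 FPKM in KO. Among the markers that did not pass, log2 fold changes ran from -0.2 for Slc1a2 to 0.26 for Gja1. The part of astrocytes in the level of Grm3 was not tested.

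Among group III receptors, which curb transmitter release, Grm4 rose. Grm4 (chromosome 17, 27422387 to 27513341, minus strand) was 9.72, 14.0, 14.5, 12.3 and 10.3 FPKM in WT1 to WT5 and 16.6, 17.7, 16.5, 13.1 and 15.3 FPKM in KO1 to KO5. KO4 overlapped with WT, and the library labelled KO3 did not. Grm4 rose by 0.37 (log2; SE 0.11; limma, adjusted p = 0.0482), and did not pass with median-of-ratios scaling (adjusted p = 0.132) or quantile normalization (0.0994). Grm8 measured 3.15, 3.32, 3.69, 3.74 and 2.86 FPKM in WT1 to WT5 and 4.71, 4.95, 4, 4.07 and 3.49 FPKM in KO1 to KO5. Only KO5 overlapped with WT, and the log2 fold change was 0.27 (SE 0.09, adjusted p = 0.0644), and 0.28 (adjusted p = 0.0495) without the library labelled KO3. Grm7 had a log2 fold change of 0.13 (adjusted p = 0.234).

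**Figure D2:**
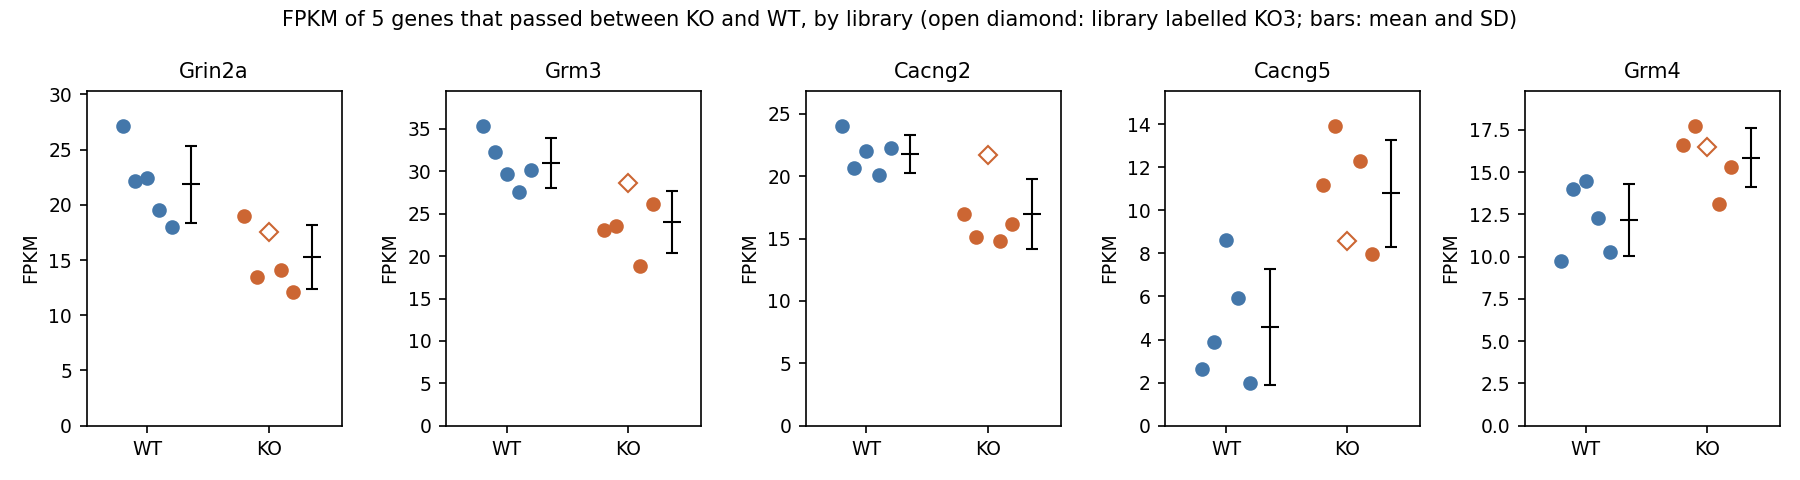
FPKM of Grin2a, Grm3, Cacng2, Cacng5 and Grm4 by library, in WT (blue) and KO (orange), with the mean and SD of each group beside the points and the library labelled KO3 as an open diamond. That library lies inside the WT range for Grm3, Cacng2 and Cacng5, just below it for Grin2a (17.5 against 18 FPKM in WT5) and above it for Grm4.

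Auxiliary subunits held the gene with the highest fold change of the 35, Cacng5. It encodes the TARP gamma-5, an atypical member of the family. Cacng5 (chromosome 11, 107874605 to 107915055, minus strand) measured 2.62, 3.87, 8.61, 5.91 and 1.99 FPKM in WT1 to WT5 and 11.2, 13.9, 8.57, 12.3 and 7.97 FPKM in KO1 to KO5. WT3 overlapped with KO. Cacng5 rose by 1.18 (log2; SE 0.28; limma, adjusted p = 0.0241), a ratio of group means of 2.35, and by 1.25 without the library labelled KO3 (adjusted p = 0.0108).

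Of the classical TARPs of cortical neurons, Cacng2 (stargazin) fell, and Cacng3 did not pass with all libraries. Cacng2 (chromosome 15, 77991748 to 78120028, minus strand) measured 24.0, 20.7, 22.0, 20.1 and 22.3 FPKM in WT1 to WT5 and 17.0, 15.1, 21.7, 14.8 and 16.2 FPKM in KO1 to KO5. Only the library labelled KO3 overlapped with WT. Cacng2 fell by 0.36 (log2; SE 0.09; limma, adjusted p = 0.0312), and by 0.44 without that library (adjusted p = 0.000759). Cacng3 was 25.1, 31.3, 33.0, 30.6 and 29.3 FPKM in WT1 to WT5 and 18.6, 18.2, 34.5, 16.6 and 19.9 FPKM in KO1 to KO5, so the library labelled KO3 held the highest value of all 10 and the other 4 the lowest. The log2 fold change of Cacng3 was -0.49 (SE 0.16, adjusted p = 0.0582), and -0.67 (SE 0.08, adjusted p = 0.000258) without that library.

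Cacng8, the TARP gamma-8 best known from hippocampus, was 75.4, 68.1, 75.4, 73.6 and 56.1 FPKM in WT1 to WT5 and 96.1, 74.6, 63.0, 85.7 and 83.7 FPKM in KO1 to KO5. Its log2 fold change was 0.20 (SE 0.11, limma adjusted p = 0.229), and 0.29 (adjusted p = 0.0475) without the library labelled KO3. Cacng2 and Cacng3 together made up 22.7, 24.1, 23.5, 23.1 and 24.5% of the FPKM summed over the 6 TARP genes in WT1 to WT5. The share was 14.7, 14.5, 24.8, 14.4 and 17.3% in KO1 to KO5, below the WT range in every KO library but the library labelled KO3, which was above it. Cnih2, with a WT mean of 203 ± 14.4 FPKM and a KO mean of 215 ± 10.2 FPKM (SD, n = 5 each), and Cacng4, Cacng7, Cnih3, Neto1, Neto2 and Shisa9 did not pass in either fit. Over all 22 genes called in neither fit, log2 fold changes ran from -0.19 to 0.24.

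**Figure D3:**
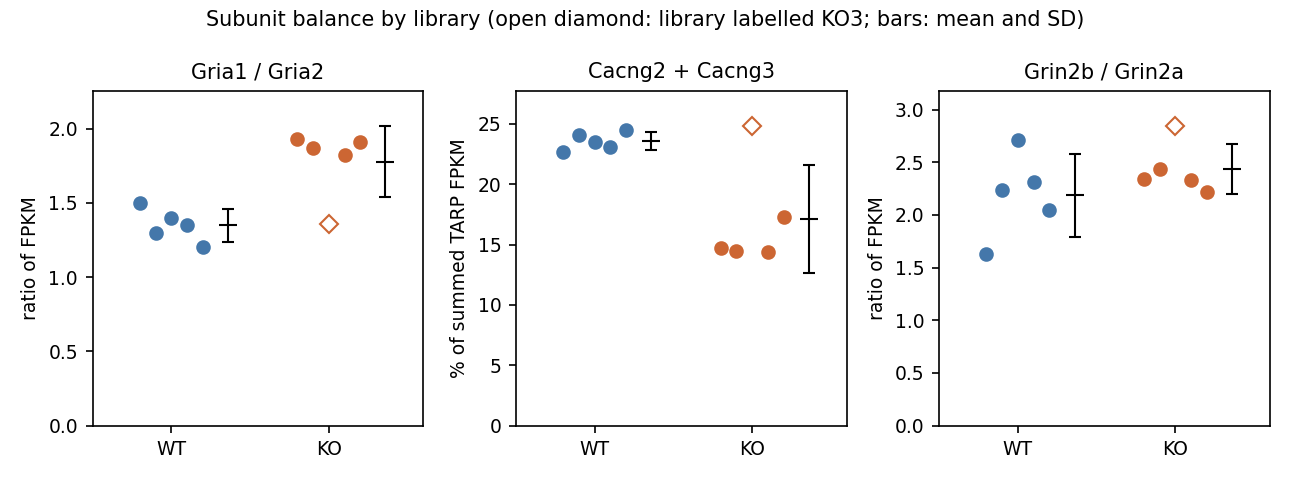
Balance of related subunits by library, as a ratio of FPKM or a percentage of summed FPKM, in WT (blue) and KO (orange), with the mean and SD of each group and the library labelled KO3 as an open diamond. Gria1 over Gria2 is 1.20 to 1.5 in WT and 1.82 to 1.93 in the 4 other KO libraries, and the share of Cacng2 and Cacng3 is 22.7 to 24.5% against 14.4 to 17.3%.

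Sequence upstream of the start was available for 3 of the 6 genes that passed, 2 that fell (Cacng2 and Grm3) and 1 that rose (Cacng5), and is shown so that the regions just upstream of genes moving in opposite directions can be compared. Each window holds the 250 bases before the annotated start on the minus strand, from RefSeq on GRCm38.p6, written 5′ to 3′ with GC boxes in capitals.
Cacng2, chr15:78119281-78119530: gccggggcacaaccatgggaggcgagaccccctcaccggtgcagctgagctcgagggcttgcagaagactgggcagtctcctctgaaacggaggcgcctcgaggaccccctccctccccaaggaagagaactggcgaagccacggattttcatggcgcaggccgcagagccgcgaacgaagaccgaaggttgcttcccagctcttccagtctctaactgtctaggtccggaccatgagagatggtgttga
Grm3, chr5:9725353-9725602: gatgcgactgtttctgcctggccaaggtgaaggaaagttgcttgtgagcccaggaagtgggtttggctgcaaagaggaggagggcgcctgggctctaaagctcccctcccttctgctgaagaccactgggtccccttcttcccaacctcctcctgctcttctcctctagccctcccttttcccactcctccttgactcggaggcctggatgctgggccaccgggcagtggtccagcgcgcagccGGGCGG
Cacng5, chr11:107915056-107915305: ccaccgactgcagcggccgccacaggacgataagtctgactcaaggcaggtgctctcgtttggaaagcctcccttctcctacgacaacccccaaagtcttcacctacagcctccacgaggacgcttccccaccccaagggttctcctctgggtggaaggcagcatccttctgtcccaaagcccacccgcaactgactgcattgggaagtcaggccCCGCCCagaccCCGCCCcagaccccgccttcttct
The start used for Cacng2 lies 748 bases inside the 5′ end of the deposited gene model, and the other starts coincide with it. The windows have a GC content of 62.0%, 62.4% and 62.0%, where the median of 32851 windows is 52.4%. The GC box, GGGCGG on either strand, was found 0, 1 and 2 times in Cacng2, Grm3 and Cacng5, and 32.7% of all windows hold it. A cAMP response element (TGACGTCA), an EGR site (GCGNGGGCG) and a TATA box (TATAAA), searched on both strands, were in none of the 3 windows, and 1.5%, 4.7% and 12.4% of all windows hold them. Of the 37 genes 23 had a window, and 12 of these held a GC box.

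Markers of neighbouring tissue moved with several of these results. A score of 7 olfactory bulb genes, the mean of log2(FPKM + 1), was 0.74, 0.837, 2.14, 1.74 and 0.768 in WT1 to WT5 and 2.22, 3.06, 2.54, 2.63 and 1.25 in KO1 to KO5. Within WT, the libraries with the higher scores, WT3 and WT4, also had the higher Cacng5 (8.61 and 5.91 FPKM against 1.99 to 3.87 FPKM). KO5, with a score of 1.25 and Omp at 0.406 FPKM, had 7.97 FPKM of Cacng5, above the 3 WT libraries with Omp under 1 FPKM. With the score as a covariate, no receptor gene passed in limma, and 0 of all genes did, although 11 and 3027 had an unadjusted p under 0.05. The log2 fold change of Cacng5 was then 0.46 (adjusted p = 0.269), and that of Grm4 0.22 (0.405), while those of Grin2a, Cacng2 and Grm3 were -0.53 (0.142), -0.32 (0.200) and -0.23 (0.325). In the 6 libraries with Omp of at least 1 FPKM, 2 WT and 4 KO, 0 genes passed in limma, and 5 receptor genes and 1908 of all genes had an unadjusted p under 0.05.

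Without the library labelled KO3 and with the bulb score as a covariate, 5 receptor genes were lower and none was higher. The 5 are 14.3% of the 35, where 3.64% of all genes were called lower and 7.75% higher. They were Grm2 (log2 fold change -1.07, limma adjusted p = 0.00315), Cacng3 (-0.69, 0.00357), Gria4 (-0.33, 0.0114), Cacng2 (-0.38, 0.0144) and Grin2b (-0.68, 0.0293). Without the covariate, their log2 fold changes were -0.64, -0.67, -0.18, -0.44 and -0.46. Within WT, Grm2 was higher in WT3 and WT4, the libraries with the higher scores (18.7 and 18.4 FPKM against 13.6 to 15.7 FPKM). In that fit Cacng5 had a log2 fold change of 0.53 (adjusted p = 0.114), Gria1 of 0.33 (0.139), Grin2a of -0.57 (0.0615) and Grm3 of -0.28 (0.106).

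**Figure D4:**
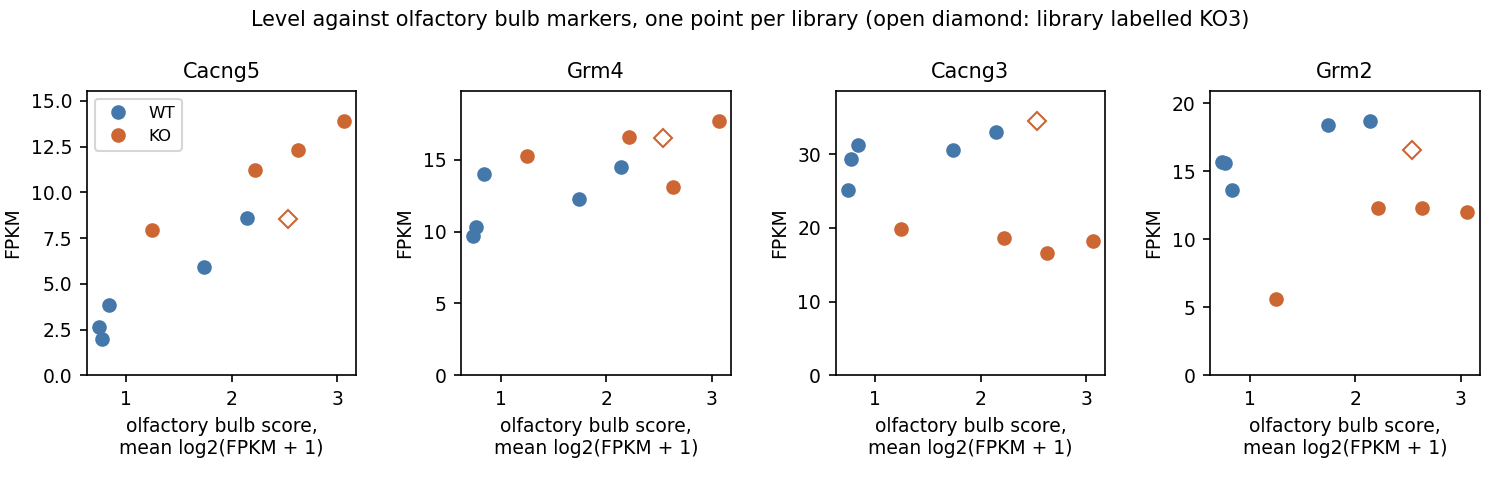
FPKM of Cacng5, Grm4, Cacng3 and Grm2 against the olfactory bulb score of the same library, 1 point per library, WT in blue, KO in orange and the library labelled KO3 as an open diamond. The library with the highest score in each group also has the highest Cacng5 (8.61 FPKM in WT3, 13.9 FPKM in KO2). Cacng3 and Grm2 in the 4 other KO libraries lie below every WT library. Grm2 too is highest in the WT libraries with the higher scores (18.7 FPKM in WT3, 18.4 FPKM in WT4). It is lowest in KO5 (5.61 FPKM), which has the lowest score of KO.

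Markers of other cell types were counted in the fit with all libraries, in which 9.77% of all genes were called higher and 3.51% lower. Of 10 GABAergic interneuron markers 7 rose (Gad1, Gad2, Slc32a1, Dlx1, Dlx5, Npy and Sst) and 1, Pvalb, fell. Lhx6 and Vip did not pass (limma adjusted p = 0.983 and 0.431). The summed level of the 10 was 292 to 391 FPKM in WT and 425 to 728 FPKM in KO. Of 9 tested striatal markers 4 rose, with sums of 204 to 631 and 496 to 639 FPKM. Of 13 cortical excitatory neuron markers 5 fell, among them the upper-layer genes Cux2 and Rasgrf2, and 2 rose, with sums of 932 to 1040 and 946 to 1160 FPKM. For oligodendrocyte precursors the sums were 142 to 155 and 124 to 148 FPKM and 0 of 6 passed, where 2 were lower without the library labelled KO3. Sums of oligodendrocyte markers were 1770 to 2180 and 1360 to 1980 FPKM, and 1 of 7, Mal, fell. Of these 7, 6 were lower without the library labelled KO3, 4 with the bulb covariate as well, and 5 with median-of-ratios scaling of all libraries. Those of microglia were 116 to 144 and 140 to 193 FPKM (2 of 7 rose, and 4 were higher without the library labelled KO3), and those of endothelial and mural cells 122 to 134 and 132 to 171 FPKM (1 of 7 rose). Olfactory bulb markers summed to 5.52 to 29.7 FPKM in WT and 12.7 to 63.9 FPKM in KO, where 1 of 7, Th, rose. Cerebellar markers stayed at 3.67 to 6.26 FPKM over all libraries, and Gabra6 and Barhl1 were listed at 0 in some. The library labelled KO3 had the lowest KO sum of interneuron (425), striatal (496), excitatory neuron (946) and microglia (140 FPKM) markers. It had the highest KO sum for oligodendrocyte precursors (148) and oligodendrocytes (1980 FPKM). Its sums of endothelial and mural (138), olfactory bulb (41.1) and cerebellar (4.82 FPKM) markers were at neither end of KO. The part of these cell types in the receptor results was not tested.

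Other genes of the glutamate synapse were read from a list of 60, of which 59 were tested. Of these 6 rose, where 9.77% of all genes did, and 9 fell, where 3.51% did. Without the library labelled KO3, 13 were higher and 18 lower, where 19.6% and 6.36% of all genes were. With median-of-ratios scaling 1 was higher and 16 lower, where 4.19% and 6.52% of all genes were. The share that rose was thus near that of all genes. Among the 9 that fell were the postsynaptic scaffolds Shank1, Shank2, Shank3, Homer1, Homer2 and Dlg2, the kinase Camk2a and Olfm1, a secreted protein that binds AMPA receptors. Camk2a, which phosphorylates AMPA receptors during potentiation, went from 820 ± 87.5 to 518 ± 109 FPKM (SD, n = 5 each; log2 fold change -0.68, SE 0.13, limma adjusted p = 0.0186). Shank2 went from 40.3 ± 3.72 to 29.0 ± 4.90 FPKM. Homer2, an adaptor of group I metabotropic receptors, fell by 0.43 on the log2 scale and Homer1 by 0.46.

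The 6 genes of that list that rose were Cpt1c, Cnih1, Slc17a8, Cbln1, Grip1 and Grip2. Cbln1, a secreted partner of the delta receptors, went from 5.70 ± 1.04 to 8.33 ± 1.52 FPKM (SD, n = 5 each; log2 fold change 0.48, limma adjusted p = 0.0315). Grip1 and Grip2 bind the tail of AMPA subunits, and each had a log2 fold change of 0.32. Slc17a8, a vesicular glutamate transporter, went from 0.938 ± 0.192 to 1.45 ± 0.174 FPKM. The main cortical vesicular transporter, Slc17a7, did not pass (log2 fold change 0.17, limma adjusted p = 0.202, and 0.23 and 0.0455 without the library labelled KO3). The scaffold Dlg4 did not pass with all libraries (log2 fold change -0.25, adjusted p = 0.0821), and did without the library labelled KO3 (-0.34, adjusted p = 0.00628).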

How the data were processed

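The labels' protocols give a Kurabo kit for RNA from motor cortex and NEBNext Ultra for the libraries. DESeq2 and mm10 appear in the submitters' processing notes, where neither has a stated role; the sources used here do not give the aligner, the counter or the annotation release. The deposited values are FPKM per gene. Multiplied by gene length, at least 99.98% were whole multiples of 1 step per library (tolerance 0.02), which gave fragments and depth. Among 45 library pairs the lowest chi-square per gene was 7.22, so none was a duplicate.

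Groups came from sample titles and columns from sample descriptions. limma 3.58.1 in R 4.3.3 (eBayes with trend, two-sided) compared KO and WT on log2(FPKM + 1) where a gene averaged 0.5 FPKM or more; this scale understates changes of low genes. The step was run on simulated counts with no deviating library and no difference in tissue between libraries. That run does not bear on the library labelled KO3 or on the bulb score. Exact permutation tests used 252 assignments. The genes, lists and tests were chosen with earlier results of these data known. Values in every library are given for genes called with or without the library labelled KO3, for the most abundant of a family and for Grin3b, the other genes by range, and the called genes of the glutamate synapse list by name. Some genes that these rules cover are not reported here. Gria4 and Grin1 were singled out after their values were seen. Alternatives varied pseudocount, filter, scaling, variance model, weights, block, covariates, thresholds and libraries. Leaving out the library labelled KO3 together with another library, or with median-of-ratios scaling, was chosen after seeing the data. All 37 identifiers matched GENCODE M21.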

Additional observations from a re-analysis of the deposited data

Results flagged for a closer look

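Of 70 groups of 5 values (35 genes in WT and in KO), 3 held a sample far from the others, where chance gives about 1 in 20. Cacng3 in the library labelled KO3 was 34.5 FPKM, against 16.6 to 19.9 FPKM in the other KO libraries. Gria3 in WT5 was 38.1 FPKM, against 42.2 to 43.4 FPKM in the other WT libraries. Cnih2 in WT4 was 229 FPKM, against 194 to 200 FPKM in the other WT libraries.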

How the results depend on the processing

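With all libraries, limma called 1926 genes, 15 of the glutamate synapse list, and 3 receptor genes higher and 3 lower. In the same order (all genes called, synapse list, receptor genes called higher, receptor genes called lower), the counts were 465, 5, 0 and 0 without a filter, 3557, 28, 4 and 6 with library weights, 1553, 17, 1 and 3 with median-of-ratios scaling, and 1407, 12, 1 and 3 with quantile normalization. They were 3546, 24, 5 and 4 at an adjusted p under 0.1, 2, 0, 0 and 0 under 0.01, and 4363, 26, 5 and 5 by exact permutation p unadjusted. With the olfactory bulb covariate, and in the libraries with Omp of at least 1 FPKM, limma gave 0, 0, 0 and 0, with 3027 and 1908 genes at an unadjusted p under 0.05. Without the library labelled KO3 they were 1650, 18, 0 and 5 with the bulb covariate and 2943, 31, 3 and 9 with median-of-ratios scaling. Leaving out 1 library at a time gave 2 to 3763, 0 to 31, 0 to 6 and 0 to 6, the highest without the library labelled KO3. The cause of these shifts was not tested.

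With a replicate block, all genes called numbered 1271, with 11 of the synapse list, 1 receptor gene higher and 5 lower. The labels do not say whether a replicate number pairs mice. Correlations of deviations between equal numbers were 0.138, -0.043, -0.057, 0.139 and 0.114, and the best match was the own number in 2 of 5. Y-linked transcripts were found in WT4, WT5, KO4 and KO5 only. With so few mice these values cannot settle whether the numbers pair them. No called receptor gene changed sign in 25 alternative fits. Among uncalled genes 15 did, all with log2 fold changes of at most 0.19 in size and none called in the alternative. These fits reuse the same libraries, so a kept sign is no independent support for a call. The number of mice limits the precision, and Grm6 and Grin3b are limited by depth.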

Other observations

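WT5 was the lowest of the 5 WT libraries for 23 of the 35 tested receptor and auxiliary genes, where WT1 and WT2 were so for 4 each and WT3 and WT4 for 2 each. The gap reached Gria1 (61.3 FPKM against 84.4 to 95.6 FPKM), Grm5 (23.6 against 35 to 41.0 FPKM), Neto1 (23.2 against 30.9 to 37.9 FPKM) and Cacng8 (56.1 against 68.1 to 75.4 FPKM). Cacng7 and Grin2c were instead highest in WT5, at 83.1 and 23.3 FPKM. In KO the lowest value, alone or tied, was most often in KO5, for 15 of the 35 genes, among them Grm2 at 5.61 FPKM and Cacng7 at 52.2 FPKM. Neither the WT5 nor the KO5 count is given over all genes, so neither can be read as a trait of these genes.

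Of the 37 genes 13 overlapped another row of the deposited table, and 7 of these overlapped one with a mean of at least 0.5 FPKM. Beside Grin3b these include Grin1, which overlaps the antisense gene Grin1os (2.68 FPKM) over 7706 bases, and Cacng2, which overlaps A730060N03Rik (4.10 FPKM) over 323 bases on the opposite strand. These overlaps are of whole gene spans, introns included, and shared exons were counted only for Grin3b and Tmem259. Where exons of such a pair share bases, their fragments cannot be told apart without strand.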
